A study of Mus musculus with 4 samples.

Results

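The genes described here are 10 effectors of the type I interferon response, Ifit1, Ifit2, Ifit3, Ifit3b, Isg15, Usp18, Rsad2, Mx1, Oasl1 and Ifi44, which were taken by symbol from the 27998 genes of the deposited matrices, where all 10 were found. They were measured in immune cells of B16F10-OVA tumours, a mouse melanoma line that carries the model antigen ovalbumin, grown under the skin of mice labelled C57BL/6, either wild-type or with a genotype in which T cells conditionally lack miR-155 (labelled miR-155 TCKO; knockout below). Tumours were taken at day 9 or day 12 after injection of the melanoma cells, those of a group (more than 4 mice) were pooled, and live cells, DAPI-negative and CD45-positive, were sorted and put through 10x 3' sequencing of single cells in droplets. This gave 4 libraries: wild-type day 9, knockout day 9, wild-type day 12 and knockout day 12. With 1 library a group there are no replicates, so the intervals below cover counting error only, a difference between 2 libraries is not a test of genotype, and day cannot be told apart from the preparation of the libraries. The Cre line that drives the deletion is not given in the sources used here. Both the set of genes and the question of whether the knockout difference at day 9 is weaker at day 12 were chosen with earlier results of these data in view, so that pattern is described here and is not independent evidence.

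Type I interferons bind a receptor of Ifnar1 and Ifnar2 on nearly all nucleated cells, and the kinases Jak1 and Tyk2 then activate transcription factors that join Irf9 and bind interferon-stimulated response elements in the promoters of target genes. The products act against viruses and also tune the signal. In tumours the same program is found in myeloid and lymphoid cells, and interferon-gamma, made by T cells and NK cells, induces a partly overlapping set of genes.

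The response element is shown in the members' promoters because it is what these genes are known to share. The letters GAAANNGAAA were searched on both strands, overlaps allowed, in RefSeq promoter windows of GRCm38.p6, which run from 250 bases before to 50 bases after the start of a gene. Of the 10 genes, 8 have a window in that table, and 5 of these 8 held the letters, against 3.99% of 27025 genes. They were found in Ifit1, Ifit3, Ifit3b, Isg15 and Rsad2. For Ifit3b the last bases of the window were not found in its transcripts, unlike for the others named, so the start used for it is uncertain. The windows of Ifit2, Oasl1 and Ifi44 did not hold these letters, which says nothing of other forms of the element. Each line gives 30 bases, 5′ to 3′ in the direction of the gene, with the match in capitals; TTTC marks a match on the opposite strand.
Ifit1, chr19:34640775-34640804, plus strand: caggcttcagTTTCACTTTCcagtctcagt
Ifit1, chr19:34640794-34640823, plus strand: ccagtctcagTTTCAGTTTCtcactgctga
Ifit3, chr19:34583363-34583392, plus strand: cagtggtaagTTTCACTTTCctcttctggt
Ifit3, chr19:34583397-34583426, plus strand: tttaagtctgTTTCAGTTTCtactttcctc
Isg15, chr4:156200871-156200900, minus strand: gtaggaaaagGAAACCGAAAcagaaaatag
Rsad2, chr12:26456553-26456582, minus strand: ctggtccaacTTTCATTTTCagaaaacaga
The matches of Ifit3b were the same letters as those of Ifit3. In Isg15, 3 matches overlapped, and the middle one is shown, starting 72 bases before the start of the gene. Among the genes on other lists described below, 11 of 24 in a second type I list and 7 of 10 in an interferon-gamma list held the letters, so the match did not set these 10 apart from other interferon-responsive genes.

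Ifit2, Ifit3, Ifit3b and Ifit1 lie in this order on chromosome 19, all on the plus strand, within 34550694 to 34650009. Ifit3 and Ifit3b are near copies. Of 451 stretches of 50 bases in the last 500 bases of the Ifit3 transcript, 14.9% were also present in Ifit3b, so the split of UMIs between these genes is uncertain.

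Across the series the libraries held 1752, 3625, 3566 and 2001 cells after filtering (wild-type day 9, knockout day 9, wild-type day 12, knockout day 12; every set of 4 values below is in this order), with median depths of 7379 to 9655 UMIs per barcode. A UMI is a molecule tag and counts captured RNA molecules. Pairs of libraries shared 4 to 16 cell barcodes. Mir155hg, the host transcript of miR-155, had 97 and 23 UMIs in wild-type T cells and 0 in knockout T cells at both days, while other cells of the knockout libraries had 33 and 84. Each cell was assigned to a class by marker genes not known as induced by type I interferon, and 199 to 771 cells a library met no gate. The markers were not chosen to be free of interferon-gamma targets. The 6 classes compared had at least 50 cells in every library: C1q macrophages, other monocytes (the monocytes and macrophages below the C1q limit and without Ace), cDC1 (type 1 conventional dendritic cells), NK cells, CD8 T cells and other T cells (T cells without the CD8 or CD4 gate). The smallest was the knockout day 12 set of 51 CD8 T cells. Levels are UMIs of a gene per 1000000 UMIs of its class (CPM) with exact 95% Poisson intervals. In pooled sums, fewer expressing cells and less RNA per cell cannot be told apart, and shares of cells are given separately.

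Myeloid cells held the highest levels of these genes. Summed over the 10, C1q macrophages of the wild-type day 9 library had 2638 CPM (2548 to 2729), the highest of the 6 classes and above other monocytes at 1927, cDC1 at 948, other T cells at 555, NK cells at 441 and CD8 T cells at 258 CPM. In that library no interval overlapped that of the next class in the order. In the knockout day 9 library the order differed. Other monocytes led at 999 CPM, and C1q macrophages followed at 531 CPM, near the lymphocytes. The intervals of CD8 T cells (390 CPM), other T cells (355) and cDC1 (316) overlapped their neighbours there, and NK cells were lowest at 173 CPM. At day 12, C1q macrophages and other monocytes were again highest in both genotypes, at 1463 to 1665 CPM, and NK cells lowest, at 178 and 128 CPM. In wild-type day 12 the intervals of the 2 leading classes overlapped.

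**Figure D1:**
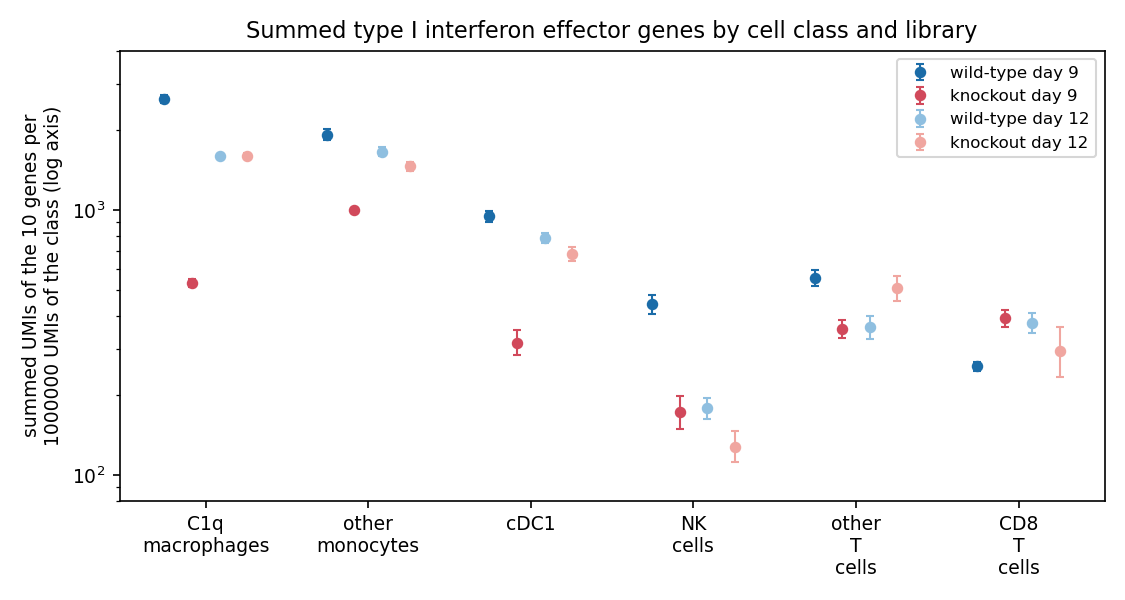
Summed UMIs of the 10 genes per 1000000 UMIs of the class (log axis) in 6 cell classes of the 4 libraries, with exact 95% Poisson intervals. The knockout day 9 library is lowest in C1q macrophages, other monocytes and cDC1, while the day 12 libraries lie close together in these classes.

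In C1q macrophages, mature tumour macrophages that make complement C1q, the summed level was 2638, 531, 1599 and 1607 CPM. The knockout day 9 library stood apart below the other 3. Knockout over wild-type was −2.31 on the log2 scale at day 9 (−2.38 to −2.24), or 4.97-fold lower, and 0.01 (−0.03 to 0.04) at day 12. The difference of these log2 ratios, day 9 minus day 12, was −2.32 (−2.40 to −2.24). All 10 members were at least 1.5-fold lower in the knockout at day 9, where 14.9% of 8979 genes were, and their median log2 ratio was −2.16 against 0.05 over all genes. At day 12 none of the 10 was 1.5-fold lower or higher, where 5.63% of 10280 genes were lower and 8.83% higher, and their median was 0.09 against 0.01 over all genes.

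Isg15, a ubiquitin-like protein that is joined to other proteins and also secreted, made up more than any other member in each of the 10 sets of cells examined over the 4 libraries, with 54.4% of member UMIs in C1q macrophages. Its level in these macrophages was 1570, 269, 886 and 838 CPM. Wild-type day 9 was highest and knockout day 9 lowest, and the day 12 libraries differed little. The log2 ratios of knockout over wild-type were −2.55 (−2.64 to −2.45) at day 9 and −0.08 (−0.13 to −0.03) at day 12.

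Usp18 removes Isg15 from its targets and also binds the interferon receptor, where it dampens the signal. Its level in C1q macrophages was 115, 30.4, 76.1 and 80.1 CPM, which was 3.78-fold lower in the knockout at day 9. At day 12 its interval of the log2 ratio included 0 (−0.10 to 0.24). The cell-intrinsic brake and the tag it removes were thus both lowest in the same library.

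The IFIT proteins bind foreign RNA and hinder its translation. Ifit3 had 260, 49.3, 183 and 175 CPM in C1q macrophages, Ifit1 had 165, 50.2, 132 and 140 CPM, and Ifit2 had 131, 23.6, 64.6 and 53.1 CPM. The knockout day 9 library was lowest for each. Log2 ratios at day 9 were −2.40 for Ifit3, −1.72 for Ifit1 and −2.47 for Ifit2. At day 12 they were −0.07, 0.09 and −0.28, and of these the interval of Ifit2 left out 0 (−0.48 to −0.08). Ifit3b, with 49.8, 3.28, 21.6 and 23 CPM, had a larger log2 ratio at day 9 (−3.92, −4.75 to −3.16) than Ifit3, whose interval was −2.63 to −2.16.

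The other antiviral effectors were Rsad2 (viperin, which makes a chain-terminating nucleotide), Mx1 (a dynamin-like GTPase), Oasl1 (an OAS-like protein that restrains translation of Irf7) and Ifi44. In C1q macrophages Rsad2 had 204, 69, 118 and 153 CPM, Mx1 had 57.8, 15.5, 40 and 45.5 CPM, and Oasl1 had 69.8, 20.7, 63 and 81.7 CPM. Knockout day 9 was again the lowest library. For Rsad2 and Oasl1 the knockout was above the wild-type at day 12, by log2 0.37 (0.24 to 0.49) and 0.38 (0.20 to 0.55), which is below 1.5-fold. Ifi44 had 19 UMIs in wild-type day 9 and 1 UMI in knockout day 9, a log2 ratio of −6.47 with a counting interval from −11.8 to −3.81, and 142 and 101 UMIs at day 12. C57BL/6 mice are known to carry a defective allele of Mx1, so its RNA here is a readout of induction.

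**Figure D2:**
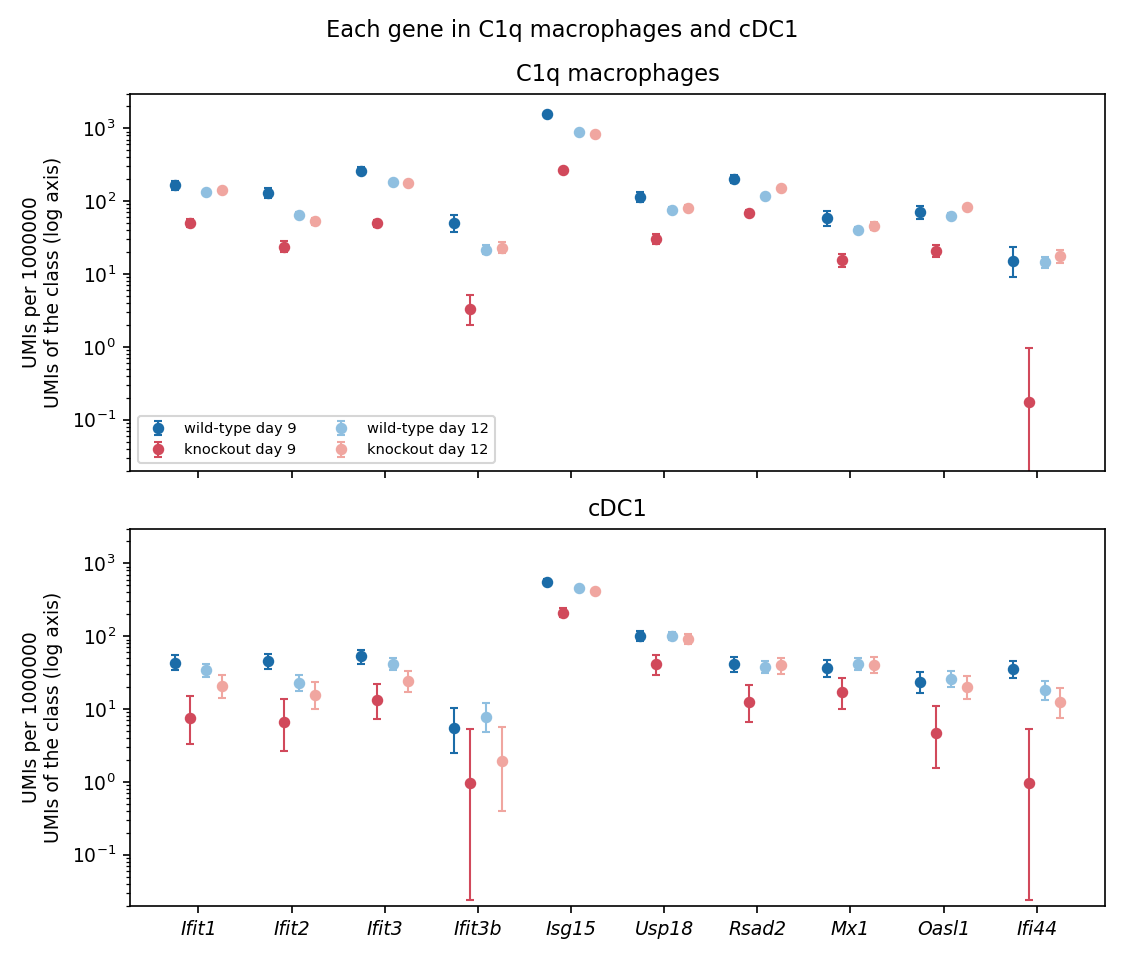
UMIs of each gene per 1000000 UMIs of the class (log axis) in C1q macrophages and cDC1, for the 4 libraries, with exact 95% Poisson intervals; lower limits below the axis are cut. The knockout day 9 point is the lowest of the 4 for all 10 genes in both classes. It rests on 1 UMI for Ifi44 in each class and for Ifit3b in cDC1. In cDC1 its interval overlaps that of knockout day 12 for Ifit1, Ifit2, Ifit3 and Ifit3b, and for Ifit3b also those of both wild-type libraries.

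Per cell, the lower sum in knockout day 9 macrophages went with more cells that had no member UMI. With each cell thinned to 2000 UMIs, which left out no cell of a compared class, 88.5% (81.1 to 93.7, exact binomial), 34.5% (30 to 39.3), 78.6% (76 to 81) and 72.8% (68.6 to 76.7) of C1q macrophages had at least 1 member UMI. Unthinned, these shares were 97.3%, 70.7%, 92.2% and 91%. Cells with at least 3 member UMIs made up 58.4%, 10.9%, 44.6% and 40.6% at the fixed depth. Cells with up to 9 member UMIs made up 89.4%, 96.9%, 94.5% and 92.3%, so cells with more were fewest in knockout day 9, where the highest cell held 45 of 2000. With most of its cells at 0, the top 10% of cells in that library held 74.2% of all member UMIs, against 43.3%, 37.8% and 44.2%. None of the classes with 50 cells is known to lack these genes, so no share for a class without expression can be set beside these values. The lowest share of cells with a member UMI at the fixed depth in a compared class was 11.1%, in knockout day 9 NK cells.

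In C1q macrophages the members were also found together in the same cells. In knockout day 9 C1q macrophages, 37.8% (29.3 to 46.8) of cells with an Isg15 UMI had a UMI of another member at the fixed depth, against 6.42% (3.91 to 9.84) of cells without Isg15. In wild-type day 9 these shares were 65.1% and 56.7%, with overlapping intervals. At day 12 they were 63.4% and 36.2% in the wild-type and 61.3% and 28.2% in the knockout. In the other compared classes the share was also higher in cells with Isg15, wherever enough cells were found. The intervals overlapped in cDC1 of both day 9 libraries and in NK cells of both day 12 libraries. They also overlapped in other T cells of wild-type day 9.

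**Figure D3:**
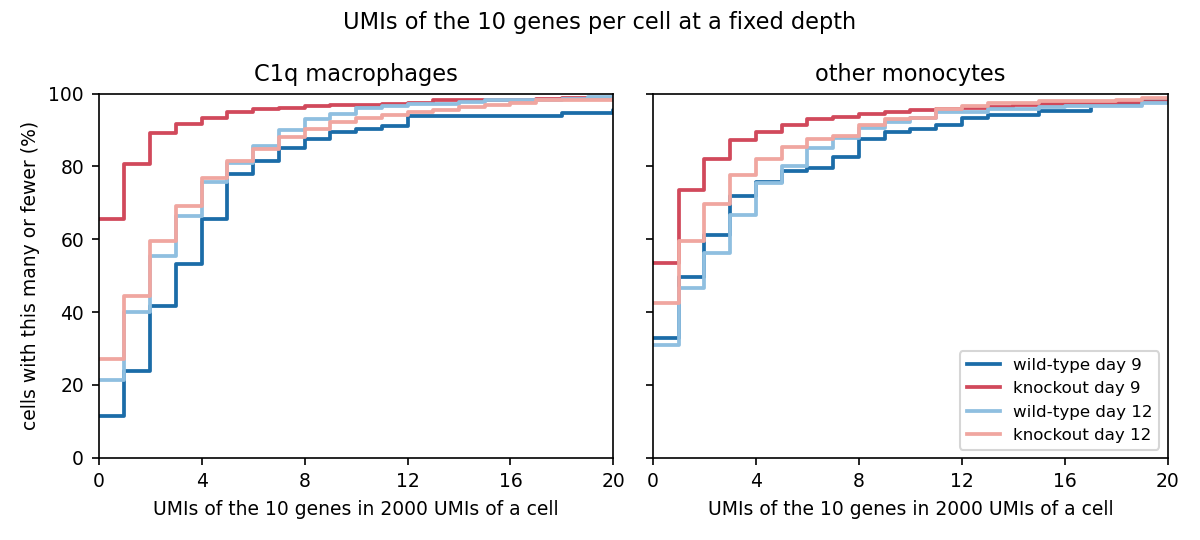
Share of cells (vertical axis, %) with up to a given number of member UMIs (horizontal axis) after each cell was thinned to 2000 UMIs, in C1q macrophages and other monocytes. In C1q macrophages the knockout day 9 curve starts at 65.5% of cells with no member UMI, against 11.5% to 27.2% in the other libraries.

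Other values differed between the macrophage libraries too. Spp1, osteopontin, which marks a tumour macrophage state, had 199, 1323, 256 and 488 CPM in C1q macrophages, and median depths were 10524, 12457, 9067 and 11419 UMIs per cell. Without cells that held a Spp1 UMI the summed log2 ratio was −2.11 at day 9 and −0.07 at day 12. The 5 melanoma markers summed to 8.83, 8.63, 20.3 and 27.7 CPM, and without cells that held such a UMI the log2 ratio was −2.11 at day 9 and 0.08 at day 12. With each cell weighted the same it was −1.91 at day 9. These sets of cells were chosen after the data were seen. The direction at day 9 was the same in each.

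Other monocytes had 1927, 999, 1665 and 1463 CPM for the summed members. The knockout day 9 library was lowest, but by less than in C1q macrophages: the log2 ratio was −0.95 (−1.02 to −0.87) at day 9 and −0.19 (−0.26 to −0.11) at day 12, and the difference of the ratios was −0.76 (−0.87 to −0.65). At day 9, 9 of 10 members were at least 1.5-fold lower, where 12.3% of genes were, and their median was −1.0 on the log2 scale, against 0.01 over all genes. Ifit1, at 132 and 92.7 CPM, missed that size. Ifit2 differed from the rest, with 85.8, 46.4, 65.1 and 32.6 CPM. It was the single member of 9 with enough UMIs that was 1.5-fold lower at day 12, where 9.37% of genes were, and its log2 ratios were −0.89 at day 9 and −1.0 at day 12. Under stricter gates the summed ratio at day 12 was 0.01, and without cells holding Spp1 it was −0.40.

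Type 1 dendritic cells, which cross-present tumour antigen to CD8 T cells, had 948, 316, 784 and 684 CPM. The log2 ratio was −1.58 (−1.76 to −1.41) at day 9 and −0.20 (−0.31 to −0.09) at day 12, and the difference of the ratios was −1.39 (−1.59 to −1.18). All 9 members with at least 20 UMIs over the pair were 1.5-fold lower at day 9, where 15% of genes were. Ifit3b had 9 and 1 UMIs and was not counted. Ifi44 had 35.6, 0.953, 18.4 and 12.4 CPM, from 58, 1, 47 and 19 UMIs, and its share of member UMIs in cDC1, 2.5%, was above the 0.8% in C1q macrophages. At day 12, 3 of 10 members (Ifit1, Ifit3 and Ifit3b) were 1.5-fold lower, where 12.3% of genes were. Of the 4 libraries the knockout day 9 one again had the lowest level of each member, though for Ifit3b its interval overlapped those of all the others. Under the stricter gates, which kept 26 of the 73 knockout day 9 cells, the log2 ratio at day 9 was −1.09.

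NK cells had 441, 173, 178 and 128 CPM. Here the wild-type day 9 library stood apart above the other 3, and it was also the highest in C1q macrophages. Unlike in those macrophages, knockout day 9 was not the lowest. The log2 ratio of knockout over wild-type was −1.35 (−1.59 to −1.12) at day 9 and −0.48 (−0.72 to −0.24) at day 12. At day 9, 8 of 9 members were 1.5-fold lower, where 11.8% of genes were, and at day 12, 4 of 8 were lower and 1 was higher, where 6% and 6.8% of genes were. Wild-type NK cells of day 12 were also below those of day 9: all 9 members with enough UMIs were at least 1.5-fold lower, where 14.8% of genes were. Isg15 followed this order with 192, 71, 81.5 and 48.9 CPM.

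CD8 T cells, which carry the deletion in the knockout, showed another order, with 258, 390, 375 and 294 CPM. The knockout was above the wild-type at day 9 (log2 0.60, 0.48 to 0.71) and below it at day 12 (−0.35, −0.70 to −0.02), where 84 member UMIs came from the 51 knockout cells. At day 9, 5 of 9 members were at least 1.5-fold higher and 1 lower, where 12.5% and 26.9% of genes were. Ifit3 had 34.6, 112, 77.2 and 108 CPM, the lowest value in wild-type day 9. Isg15, at 120, 116, 146 and 101 CPM, differed less, and the summed log2 ratio at day 9 without it was 0.99. The lower member at day 9 was Mx1, with 15, 8.44, 7.86 and 0 CPM.

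In CD8 T cells the share of cells with a member UMI at the fixed depth was 28.6%, 27.8%, 37.1% and 27.5%, so the day 9 libraries had nearly the same share although their sums differed. The top 10% of cells held 69.8% of the member UMIs in wild-type day 9 and 77.1% in knockout day 9. With each cell weighted the same, the summed log2 ratio at day 9 was 0.21. Wild-type day 9 CD8 T cells were also deeper than the others, with a median of 12334 UMIs against 4354 to 4927. The part of depth in the result was not tested.

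Other T cells had 555, 355, 361 and 507 CPM, high in wild-type day 9 and knockout day 12. The log2 ratio was −0.64 (−0.80 to −0.49) at day 9 and 0.49 (0.27 to 0.71) at day 12. At day 9, 4 of 9 members were 1.5-fold lower, where 15.2% of genes were, and at day 12, 1 of 6 was lower and 2 were higher, where 9.24% and 11.2% were. In knockout day 12 the top 10% of cells held 81.1% of member UMIs, and the share of cells with a member UMI was lowest there at 24.2%, against 43.5%, 26.7% and 35.4%. The sum in that library thus rested on few cells. With each cell weighted the same, the log2 ratio at day 12 was 0.14.

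**Figure D4:**
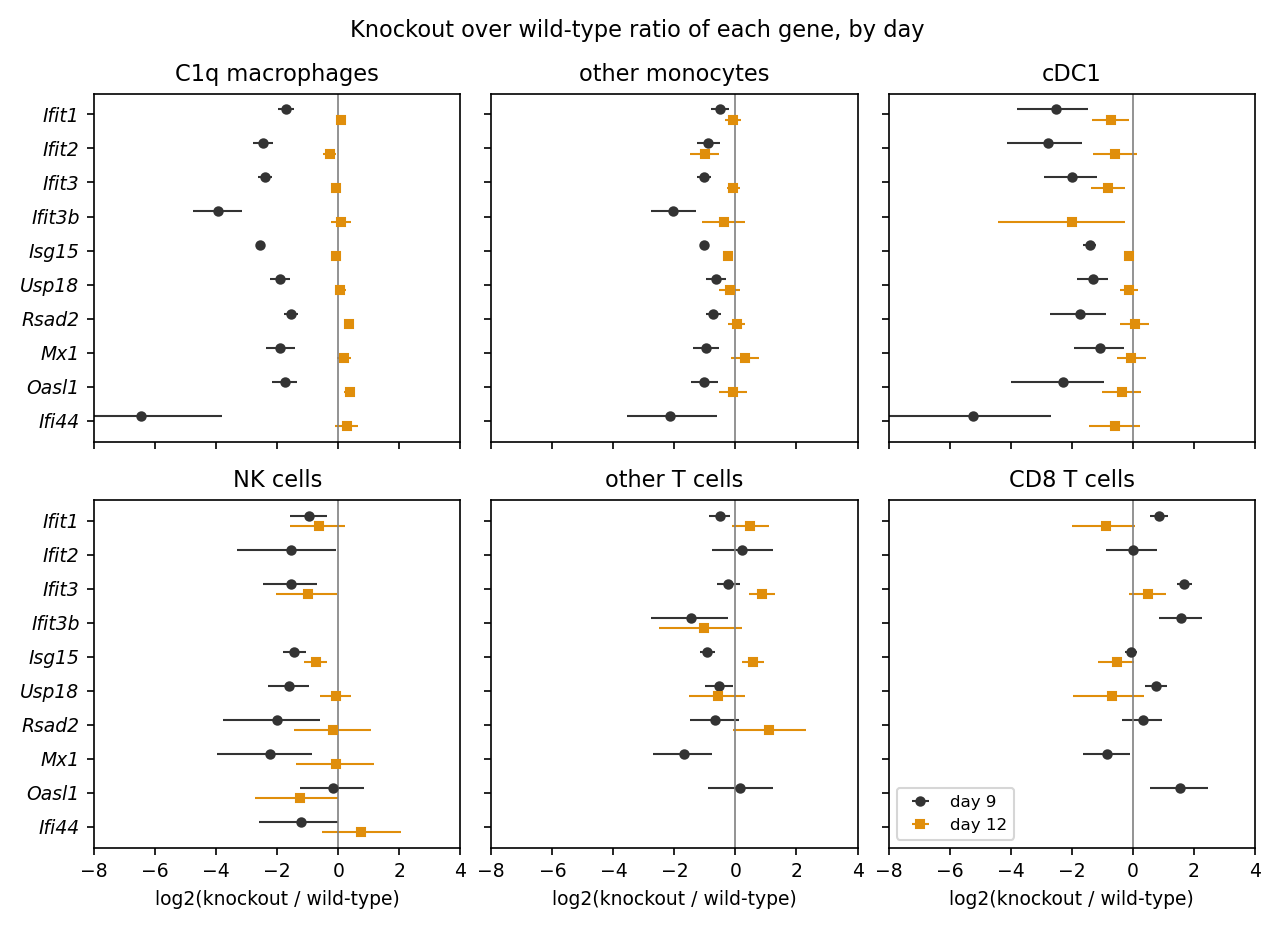
Log2 ratio of knockout over wild-type for each gene (rows) at day 9 (circles) and day 12 (squares) in 6 classes, with exact 95% counting intervals, cut at −8; genes with under 20 UMIs over the pair are not drawn. In C1q macrophages all 10 circles lie left of all squares, and in CD8 T cells 7 of 9 circles lie right of 0.

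The C1q transcripts, which can reach other cells as free RNA or in doublets, were given beside these classes. They were at 6.13 to 8.56 CPM in cDC1, NK, CD8 and other T cells of wild-type day 9, at 16.2 to 19.9 CPM in knockout day 9 and at 68.1 to 106 CPM at day 12. Without cells holding a C1q UMI, the summed log2 ratio at day 9 was −1.48 in cDC1, −1.59 in NK cells, −0.65 in other T cells and 0.79 in CD8 T cells. The part of RNA carried over from macrophages in these results was not tested.

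Classes with fewer than 50 cells in a library gave values only. In cDC2, which present antigen to CD4 T cells, the members summed to 1463 (43 cells), 648, 979 and 1065 CPM. In mature dendritic cells they summed to 999 (39 cells), 465, 1193 and 1036 CPM. Plasmacytoid dendritic cells, known as strong makers of type I interferon, had 599 (40 cells), 194 (230 cells), 613 (28 cells) and 498 (19 cells) CPM. In each of these dendritic cell classes the knockout day 9 library was lowest. Monocytes with Ace, a gene of patrolling monocytes, went another way, with 556 (7 cells), 624 (146 cells), 312 (14 cells) and 257 (19 cells) CPM. Their knockout day 9 value was the highest, inside the wild-type day 9 interval of 360 to 820 CPM, which rests on 25 UMIs. CD4 T cells of wild-type day 9 had 2989 CPM, but 120 of the 430 UMIs came from 1 of 27 cells and 231 from 3.

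Classes differed in which members made up the sum. Three-prime counting takes one tag a molecule, so UMIs of different genes were compared without a length term. Isg15 held 70.1% of member UMIs in mature dendritic cells, 59.6% in cDC1, 42% in CD8 T cells and 38.3% in other T cells, over the 4 libraries. Ifit3 held 17.8% in CD8 T cells and 19.4% in other T cells, against 4.9% in cDC1. Usp18 held 25.3% in plasmacytoid dendritic cells and 17.8% in NK cells, against 4.9% in C1q macrophages, and Rsad2 held 8.6% in C1q macrophages and 3.7% in CD8 T cells. The dendritic cell classes differed among themselves: Isg15 held 50.4% in cDC2 and 47.3% in plasmacytoid dendritic cells, below its share in C1q macrophages.

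The ligands were nearly absent from these libraries. Of 17 type I interferon genes, 2 (Ifnb1 and Ifnz) had any UMI, with 16 UMIs in all libraries. Of these, 9 were Ifnb1 UMIs in 1 of 909 other monocytes of knockout day 9. At this depth such counts were too few to compare classes or libraries, and tumour cells were removed by the sort. The source of type I interferon was not tested.

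The receptor and signalling genes were described in C1q macrophages. Of the 6 classes, these had the highest summed member level in wild-type day 9 and knockout day 12, and other monocytes had it in the other libraries. The receptor chains and kinases stayed within 1.5-fold between genotypes at both days. Ifnar1 had 55.4, 66.1, 48.2 and 49 CPM, Jak1 had 104, 109, 105 and 116 CPM, and Tyk2 had 22.5, 17.4, 17.5 and 12.5 CPM, with log2 ratios of −0.37 and −0.48. Stat2, a transcription factor of the pathway and an interferon target itself, was lower in the knockout at day 9. It had 65, 19.7, 53.2 and 51.7 CPM, with log2 ratios of −1.72 at day 9 and −0.04 at day 12. Irf9 had −0.72 and −0.11.

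Among 13 genes that sense nucleic acids and induce interferon, 12 had enough UMIs in C1q macrophages. Of these 12, 7 were 1.5-fold lower at day 9 and 0 at day 12, where 14.9% and 5.63% of all genes were. This list is not separate from the type I response, as it shares Irf7 with the list of other type I genes below. Irf7, the factor that amplifies interferon production, was lowest with a log2 ratio of −2.59 at day 9, from 774 and 128 CPM, and −0.36 at day 12. Tlr3, a sensor of double-stranded RNA, had −1.80 and −0.04. Mb21d1, which encodes the DNA sensor cGAS, had −0.13 and 0.07, and Tlr7 −0.31 and 0.31. Socs1 and Socs3 are feedback inhibitors beside Usp18. Socs1 was lower at both days (−1.39 and −1.68), while Socs3 was higher at day 9 (0.76) and at 0.27 at day 12.

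The other genes of the type I response went the same way as the members in C1q macrophages. Of 30 genes on that list, 29 had enough UMIs. At day 9, 29 of 29 were at least 1.5-fold lower (median −1.85 on the log2 scale), where 14.9% of all genes were. At day 12, 2 were lower and 1 was higher, where 5.63% and 8.83% of all genes were, and the median of the list was −0.06. The extremes at day 9 were Ifit1bl1 (−3.07) and Oas1g (−2.95) at the low end and Eif2ak2 (−1.13) and Usp25 (−1.0) at the other. At day 12 they were Zbp1 (−0.60) and Pml (−0.59) below and Slfn5 (0.56) and Ddx60 (0.84) above.

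Genes better known as interferon-gamma targets had another pattern over the days. In C1q macrophages 9 of 15 were 1.5-fold lower at day 9 and 12 of 15 at day 12, where 14.9% and 5.63% of all genes were. Their medians were −1.39 and −1.17, set beside 0.05 and 0.01 over all genes. Gbp2b, a guanylate-binding protein, had 149, 11.4, 140 and 6.45 CPM, low in both knockout libraries, with log2 ratios of −3.71 and −4.44. Irgm2, an immunity-related GTPase, had −2.62 and −1.16. Cxcl9, a chemokine that draws T cells, had 0.16 at day 9 and −1.01 at day 12, and Nos2, inducible nitric oxide synthase, had 0.20 and −3.09. The MHC class II genes stayed within 1.5-fold at both days, with Cd74 at −0.14 and H2-Eb1 at −0.16 at day 12. In these macrophages at day 12 the medians of the type I genes were near 0, at 0.09 for the members and −0.06 for the other list. Single genes of the other list ran from −0.60 to 0.84. Most of the interferon-gamma list was lower in the knockout there. The genotype difference between the lists was not tested.

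**Figure D5:**
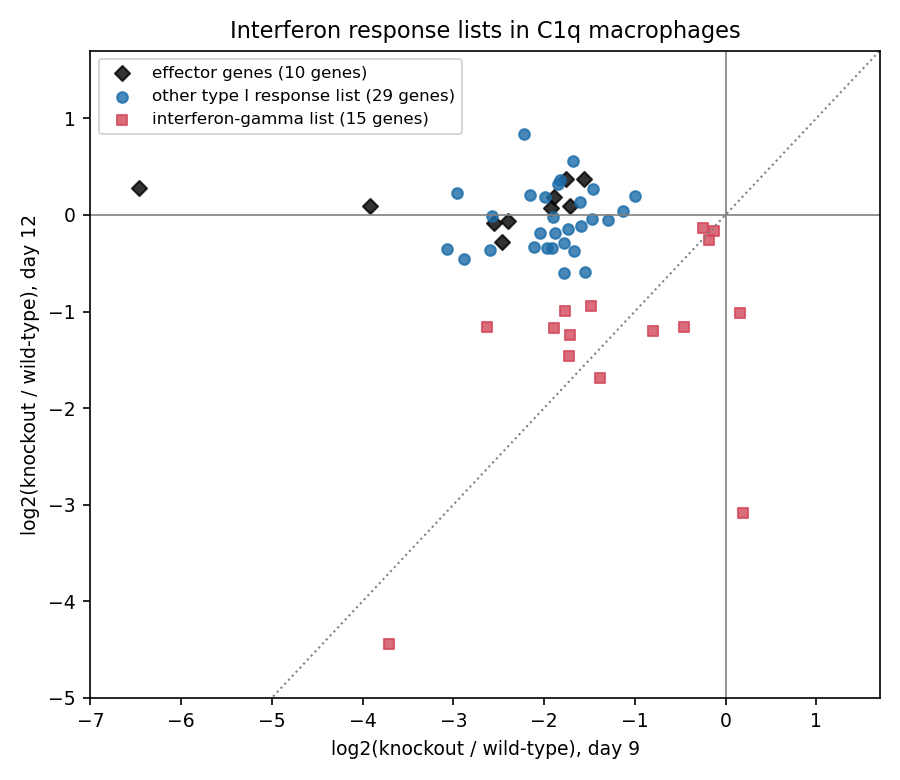
Log2 ratio of knockout over wild-type in C1q macrophages at day 9 (horizontal) and day 12 (vertical) for the 10 effector genes, 29 other type I response genes and 15 interferon-gamma genes; the dotted line marks equal ratios. Type I genes spread along the day 9 axis and lie near 0 at day 12, between −0.60 and 0.84, while 12 of the 15 interferon-gamma genes are more than 1.5-fold lower at day 12.

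The lists differed by class as well. In NK cells 19 of 25 other type I genes were 1.5-fold lower at day 9 (median −1.09) and 2 of 23 at day 12. Of all genes, 11.8% and 6% were lower there. In cDC1 these counts were 17 of 26 (median −0.83) and 8 of 27, where 15% and 12.3% of all genes were lower. In other monocytes they were 19 of 29 (median −0.72) and 1 of 29, where 12.3% and 9.37% were. In CD8 T cells 4 of 27 other type I genes were lower and 3 higher at day 9, where 26.9% and 12.5% of all genes were. Both counts were thus no higher than these shares, and the median was 0.08 against −0.19 over all genes. Beside the same shares, 7 of 13 genes of the interferon-gamma list were higher there and 4 lower (median 1.05). Among the 4 feedback genes, which include the members Usp18 and Isg15, 3 were higher (median 1.31), and Socs3 was at 3.59.

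Read along time, the genotypes went opposite ways in several classes. These ratios use the same 4 libraries as those above and add no further evidence. In C1q macrophages day 12 over day 9 was −0.72 (−0.78 to −0.67) in the wild-type and 1.6 (1.54 to 1.66) in the knockout. All 10 members were at least 1.5-fold higher at day 12 in the knockout, where 16.4% of genes were, and 5 of 10 were lower in the wild-type, where 11.3% were. In cDC1 the 2 values were −0.27 and 1.11. In NK cells both were negative, at −1.30 and −0.43.

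One model test was possible with 4 libraries, for a genotype difference common to both days, with 1 residual degree of freedom (edgeR's quasi-likelihood test on class sums, Benjamini-Hochberg adjustment over all genes). It called 0 of 10 members in C1q macrophages, where 0.0402% of 9938 genes were called lower and 0.0201% higher; 2 members had an unadjusted p under 0.05, and DESeq2 also called 0. In other monocytes it called 2 members lower, where 0.492% of genes were: Ifit2 (log2 −0.91, SE 0.177, adjusted p = 0.0149 by edgeR) and Ifi44 (log2 −2.38, SE 0.552, adjusted p = 0.047 by edgeR). Both were lower in the knockout at both days, but Ifi44 had only 7, 14, 15 and 2 UMIs in the 4 libraries. Its day 12 pair had too few UMIs for its ratio to be used, so its call rests on few molecules. In CD8 T cells Ifit3 was called higher, where 2.23% of genes were (log2 1.40, SE 0.289, adjusted p = 0.0309 by edgeR). In NK cells Isg15 was called lower for genotype, where 0.253% were (log2 −1.10, SE 0.187, adjusted p = 3.32e-06 by edgeR).

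The same model called 3 members lower at day 12 over both genotypes in NK cells, where 4.99% of genes were: Ifit1, Ifit3 and Isg15. The NK fit estimated no variation of its spread between genes, so its p-values are the least guarded. In cDC1, where 0.117% of genes were called lower, and in other T cells, where 0.054% were, 0 members were called for genotype, and 7 and 1 had an unadjusted p under 0.05. DESeq2 called 0 members in every class and for either effect. A difference present at one day and not at the other enters this model as residual spread.

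Which genes tracked the members was read from log2 CPM over 32 combinations of class and library with at least 50 cells, which share libraries, among 9866 genes. Non-members most like the members' mean included Ifih1 (Pearson r = 0.908), Gm5431, Phf11d, Gm7676, Rnf213, Oasl2, Eif2ak2, Irf7 and Oas3 (r = 0.864). Rsad2 (0.938), Isg15 (0.936) and Ifit2 (0.93) were the members closest to the mean, to which they contribute. Ifit3 (0.706) and Ifit3b (0.692) were further from it, and Ifi44 (0.495) was furthest. Among pairs, Isg15 and Rsad2 were most alike (r = 0.933), and Ifit3 and Ifi44 least (r = −0.07).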

How the data were processed

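The deposited values are UMI counts per gene and cell barcode in 4 libraries, which the authors obtained on mm10 by Cell Ranger 2.0.2, per the submitters' processing notes. Cells were kept with at least 200 genes, at most 10% mitochondrial and at most 5% haemoglobin UMIs. Scrublet (scanpy 1.11.5) called 2 to 21 barcodes as doublets at its own threshold, too few to rely on, so the highest scores were removed at 0.8% per 1000 barcodes (25 to 112 a library). A cell joined a lineage with at least 3 UMIs from at least 2 of its markers and 2 times the UMIs of every other list; C1q macrophages had at least 5 C1q UMIs per 10000, and 9 to 78 cells a library lay near that limit. No clustering was used, and Mx2 and Trac had no matching symbol.

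Class sums were scaled to CPM. Ratios have exact conditional 95% intervals, and differences of ratios a normal approximation of log counts. A gene's ratio was used at 20 or more UMIs over the pair. The model test was edgeR 4.0.16 on class sums with day and genotype, after filterByExpr and TMM scaling, at an adjusted p of 0.05; DESeq2 1.42.0 was an alternative. The script was tested on simulated data. Named genes were all members, the 10 genes most like them, and up to 4 genes at the extremes of each list; some of these are not reported here. The members, lists and comparisons were chosen with earlier results of these data known. Depth per library was 18783490 to 33902064 UMIs. Alternatives are given in the closing section.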

Additional observations from a re-analysis of the deposited data

Results flagged for a closer look

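In several classes the summed members differed in opposite directions under the same contrast, with counting intervals on either side of 0. With 1 library a group these differences between groups were not tested.

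The day effect, log2 of day 12 over day 9, was opposite in the genotypes in 6 sets of cells. In C1q macrophages it was −0.72 in the wild-type and 1.6 in the knockout, and in monocytes and macrophages together −0.53 and 0.98. In other monocytes it was −0.21 and 0.55, and in cDC1 −0.27 and 1.11. In other T cells it was −0.62 and 0.51. In CD8 T cells the signs were the other way round, at 0.54 in the wild-type and −0.41 in the knockout.

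The genotype effect, log2 of knockout over wild-type, was opposite at the 2 days in both T cell classes. The values for CD8 T cells were 0.60 (day 9) and −0.35 (day 12), and those for other T cells −0.64 (day 9) and 0.49 (day 12). Knockout day 12 CD8 T cells gave 84 member UMIs from 51 cells. With each cell weighted the same, the positive value of either class was nearer 0, while the negative values were further from it. These genotype effects use the same 4 libraries as the day effects.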

How the results depend on the processing

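The day 9 ratio of the summed members kept its sign in all 7 sets of cells under every alternative run. At day 12, 2 ratios whose counting interval left out 0 changed sign: other monocytes under stricter gates (0.0053), and monocytes and macrophages together without Isg15 (0.046). The day 12 ratio of C1q macrophages, 0.0068 with an interval that held 0, was also negative with TMM factors (−0.025) and without Spp1-holding cells (−0.069). Apart from the first 2, 41 of 118 alternative values of a ratio, this last one included, and 13 of 45 differences between days, left the counting interval of the reported value. The values are log2 ratios of knockout over wild-type, unless named as a difference (day 9 minus day 12).

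With TMM factors, CD8 T cells at day 9 were at 0.75, other monocytes at −0.85, and monocytes and macrophages together at −1.5 (difference −1.43); with median-of-ratios factors CD8 T cells were at 0.75. Stricter gates gave 0.84 (day 9) and −0.80 (day 12) in CD8 T cells (difference 1.64), other T cells −0.83 at day 9 (difference −1.51), cDC1 −1.09 and −0.019 (difference −1.07), other monocytes −0.82 at day 9, C1q macrophages −2.44 at day 9 (difference −2.45), and the joint set −1.64 at day 9 (difference −1.61). Without Isg15, day 9 values were 0.99 in CD8 T cells, −0.49 in other T cells, −1.88 in cDC1 (−0.31 at day 12), −0.84 in other monocytes, −2.02 in C1q macrophages (0.11 at day 12, difference −2.13) and −1.35 in the joint set (difference −1.39). With each cell weighted the same, day 9 values were 0.21 in CD8 T cells, −1.11 in other T cells (0.14 at day 12), −1.11 in NK cells, −1.35 in cDC1, −0.85 in other monocytes (−0.40 at day 12), −1.91 in C1q macrophages and −1.28 in the joint set (−0.12 at day 12). The cause of these shifts was not tested.

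Alternatives chosen after seeing the data left out cells. Without Spp1-holding cells, other monocytes were at −0.87 and −0.40 (difference −0.47), C1q macrophages at −2.11 and −0.069 (difference −2.04) and the joint set at −1.30 and −0.16 (difference −1.15). Without melanoma-holding cells, C1q macrophages were at −2.11 and 0.076 (difference −2.18) and the joint set at −1.43 and −0.0089 (difference −1.42). Without C1q-holding cells, CD8 T cells were at 0.79 at day 9.

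Counts of members called depended on the filter and the tool. DESeq2 called 0 for genotype in CD8 T cells, NK cells, other monocytes and the joint set, and 0 for day in NK cells and the joint set, where edgeR's test called 1 to 3. Without the filter on low counts, edgeR called 2 for genotype in NK cells, 4 in cDC1, 5 in C1q macrophages and 5 in the joint set, and 2 for day in C1q macrophages and 2 in the joint set. With median-of-ratios factors it called 1 in other monocytes. No paired analysis was possible because each group is 1 library and the labels give no replicate numbers. Leaving out a library was not possible for the same reason.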
